A study of Mus musculus with 6 samples.

Results

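Foxp3, the 5 Ikaros family factors and 4 surface or secreted genes of regulatory T cells were followed in CD4 single-positive thymocytes with and without the transcriptional repressor Bach2. The 10 genes were chosen by name (Foxp3, Ikzf1, Ikzf2, Ikzf3, Ikzf4, Ikzf5, Lrrc32, Nrp1, Ebi3 and Entpd1), by no threshold on their values. They and the gene lists used below were chosen with earlier results of these data known, so their counts are no independent test. All 10 were measured among the 19938 genes tested. The data were 6 arrays, 3 of wildtype and 3 of Bach2 knockout cells, all male and of C57BL/6 background. Lethally irradiated male Rag1 knockout mice, 8 weeks old, had received marrow depleted of mature lineages, mixed in equal parts from Ly5.1+ wildtype and Ly5.1- Bach2 knockout males of the same age. After 2 months both kinds of CD4 single-positive thymocyte were sorted from such chimeras by Ly5.1, an allele of CD45 that therefore went with genotype. Per the design text the samples came from separate mice, 3 biological replicates of each genotype. The hosts lack Rag1 and make no T cells of their own, so both genotypes matured in a host thymus with no T cells other than those from the marrow. The deleted part of Bach2 was not given in the sources used here.

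Regulatory T cells are CD4 T cells that restrain immune responses, and a part of them arises in the thymus among CD4 single-positive cells that receive strong self-antigen signals. Foxp3 is the forkhead factor that specifies and maintains them, and people and mice without it develop fatal autoimmunity. The Ikaros family are zinc finger proteins that bind DNA and recruit chromatin-modifying complexes: Ikzf1 (Ikaros) and Ikzf3 (Aiolos) act throughout lymphoid development, Ikzf2 (Helios) and Ikzf4 (Eos) are abundant in regulatory T cells, and Ikzf5 (Pegasus) is a broadly expressed, divergent relative. Lrrc32 (GARP) tethers latent TGF-beta to the cell surface, Nrp1 is a semaphorin and VEGF co-receptor, Entpd1 (CD39) degrades extracellular ATP, and Ebi3 is a secreted cytokine subunit.

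The arrays correlated at 0.981 to 0.991 with each other (Pearson's r over probe sets, which are no independent replicates). The targeted gene, Bach2, was at 7.89, 8.20 and 8.05 on wildtype arrays 1 to 3 and 6.50, 6.42 and 6.52 on knockout arrays 1 to 3, a difference of -1.57 ± 0.11 (knockout minus wildtype, limma standard error; adjusted p = 0.000156). All values are array levels on a log2 scale, on which 1 unit is a doubling, and the level of 1 gene is not comparable with that of another. Of 8 markers of the sorted cells, 7 were measured (Cd3e and Cd5 among them), their mean was 10.45 to 10.58 on every array, and 0 passed the test (limma; 1 at an unadjusted p under 0.05). Among the wildtype arrays replicate 1 stood apart in the genes described here. It held the lowest wildtype value for all 10, against 30.05% of all genes tested, and the difference of each of the 10 genes is therefore also given without it. Because this array was singled out by these same values, leaving it out must lower the difference of each of the 10. A gene that passes only without it gains no support from that.

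Of the 10 genes, 3 fell in the knockout at an adjusted p under 0.05 (Foxp3, Lrrc32 and Ikzf2), against 0.216% of all genes tested, and 0 rose, against 0.351% of all genes (limma; 7 lower and 0 higher at an unadjusted p under 0.05, against 3.87% and 3.04% of all genes). Nrp1, Ebi3, Entpd1 and Ikzf4 had lower means that did not pass, and Ikzf1, Ikzf3 and Ikzf5 differed by less than 0.1. The median difference over the 10 was -0.70, beside -0.01 over all genes. For 6 of them every knockout array lay below every wildtype array, as did 6.57% of all genes. Without wildtype replicate 1 the median difference was -0.93, and Entpd1 no longer overlapped, which made 7 without overlap, beside 10.98% of all genes. Without this array the count past the test was 6, with Nrp1, Ebi3 and Entpd1 added, and without wildtype replicate 3 it was 1, Foxp3 alone.

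**Figure D1:**
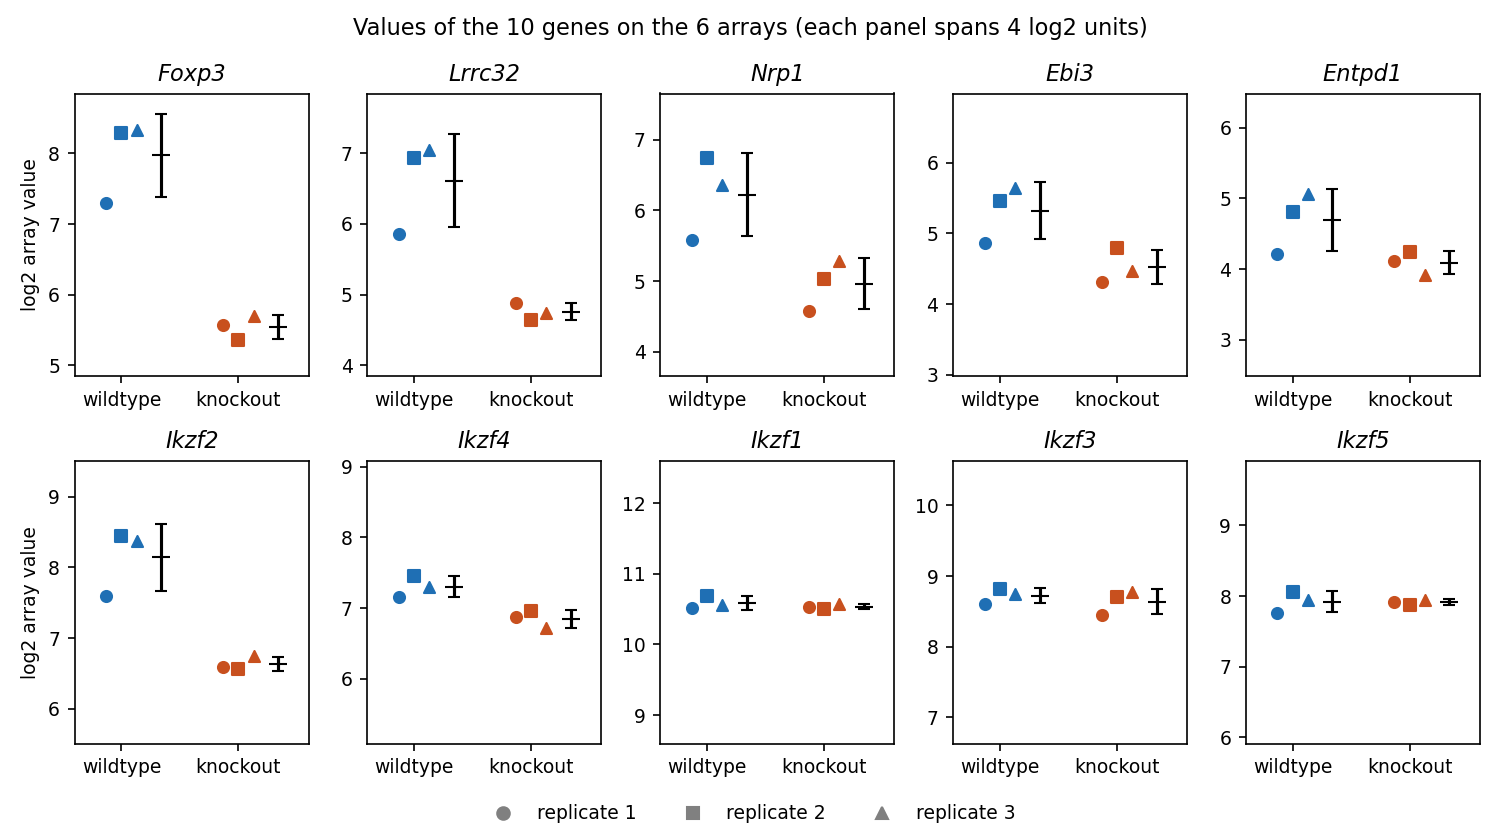
Log2 array values of the 10 genes, a panel each, in wildtype (blue) and knockout (orange) thymocytes, with a symbol for each replicate and the mean ± SD (n = 3) in black beside them. Foxp3, Lrrc32, Nrp1, Ebi3, Ikzf2 and Ikzf4 show no overlap between genotypes, and the circle of wildtype replicate 1 is the lowest wildtype point in every panel.

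**Figure D2:**
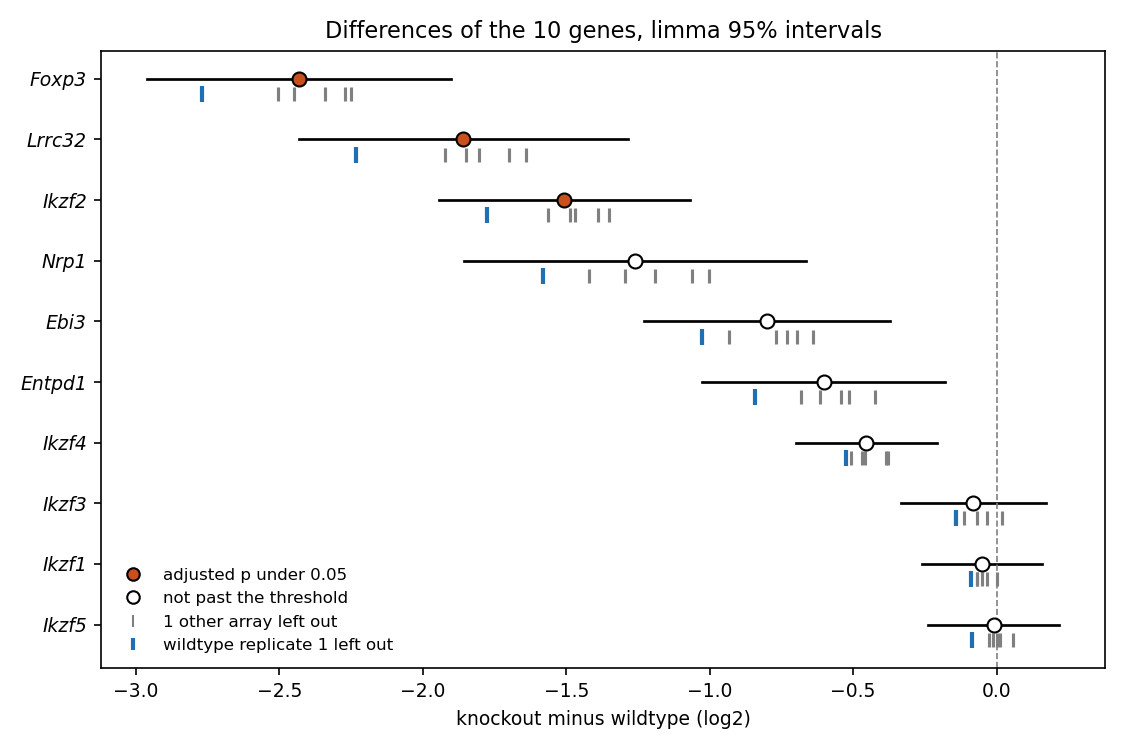
Knockout minus wildtype difference (log2) of each gene with its 95% interval from limma, filled where the adjusted p was under 0.05. Ticks below give the difference with 1 array left out, and leaving out wildtype replicate 1 (blue tick) gave the lowest value for every gene but Ikzf3.

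Foxp3 (probe set 10598292) read 7.30, 8.29 and 8.33 on the wildtype arrays, in replicate order, and 5.58, 5.36 and 5.69 on the knockout arrays. The lowest wildtype array was 1.61 above the highest knockout array, and the knockout values spanned 0.33 against 1.03 in wildtype. The difference of -2.43 ± 0.24 (95% interval -2.96 to -1.90, 5.39-fold lower, adjusted p = 0.00148) was the largest fall of all genes tested over the 6 arrays. With 1 array left out Foxp3 kept that rank only without knockout replicate 3 and was otherwise second, to Ctse in 3 fits and to Penk in 2. Its difference passed with each array left out, from -2.25 without wildtype replicate 3 (adjusted p = 0.0135) to -2.77 without wildtype replicate 1 (adjusted p = 3.88e-05). In sorted bulk cells, fewer regulatory T cells and less Foxp3 RNA per cell cannot be told apart, and the same holds for the genes that follow. With all 35556 probe sets tested in place of 19938 genes, Foxp3 did not pass (adjusted p = 0.0743).

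The sequence at which Foxp3 transcription starts is shown because Foxp3 is the only called gene of the 10 with an entry in the promoter table (RefSeq, build GRCm38.p6). Of the 10 genes 6 were matched, with 9 start sites, and Ikzf2, Ikzf3, Ikzf4 and Lrrc32 were not. Each window runs from 250 bases before to 50 after an annotated start, and both Foxp3 windows, at chrX:7579426-7579725 and chrX:7580233-7580532, lie on the plus strand. Capitals mark a match to the Ikaros core motif searched below.
Foxp3 start 1: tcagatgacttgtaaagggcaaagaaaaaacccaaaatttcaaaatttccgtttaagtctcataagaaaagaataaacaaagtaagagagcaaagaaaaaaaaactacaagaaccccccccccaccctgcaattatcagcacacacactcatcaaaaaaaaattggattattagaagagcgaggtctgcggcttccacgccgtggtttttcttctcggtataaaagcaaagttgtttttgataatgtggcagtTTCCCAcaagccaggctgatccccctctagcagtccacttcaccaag
Foxp3 start 2: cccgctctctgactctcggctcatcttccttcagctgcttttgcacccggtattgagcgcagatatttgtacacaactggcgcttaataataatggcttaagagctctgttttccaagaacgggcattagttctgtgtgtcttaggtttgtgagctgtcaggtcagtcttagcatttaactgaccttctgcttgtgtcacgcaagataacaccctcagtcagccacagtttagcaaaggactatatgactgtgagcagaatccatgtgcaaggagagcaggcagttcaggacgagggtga

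Both strands of the 9 windows were searched for the core of the site that Bach and AP-1 factors bind (TGAGTCA), a forkhead core (GTAAACA), an Ikaros core (TGGGAA) and a Runx core (TGTGGT), whose matches in these windows did not overlap. The Bach and AP-1 core was in 0 of the 9 windows, beside 5.2% of all 32851 promoters in the table, and the forkhead core was also in 0, beside 3.65%. The Ikaros core occurred once in the first Foxp3 window (as its reverse complement TTCCCA) and once in the first Entpd1 window, beside 25.6% of all promoters. A Runx core was in the second Entpd1 window, beside 16.8% of all promoters. G and C made up 40.7% and 47.7% of the 2 Foxp3 windows, below the median of 52.7% over all promoters. These are letter matches in short windows, and no binding was measured.

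Within the Ikaros family, Ikzf2 was the member whose fall passed the test. Its probe set (10355312) read 7.60, 8.45 and 8.38 in wildtype and 6.59, 6.56 and 6.75 in knockout cells. The genotypes were separated by 0.85, and the difference was -1.51 ± 0.20 (2.84-fold lower, 95% interval -1.94 to -1.07, adjusted p = 0.00754). It was -1.78 without wildtype replicate 1 (adjusted p = 0.000195), and the call was lost without wildtype replicate 3 (adjusted p = 0.0617). Ikzf2 lies on chromosome 1, as does Ptprc, the CD45 gene whose allele differed between the genotypes, with 410 of the chromosome's 1126 tested genes between them.

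Ikzf4, the other family member abundant in regulatory T cells, had wildtype values of 7.16, 7.45 and 7.30 and knockout values of 6.88, 6.95 and 6.71. All knockout values were lower, by at least 0.21. The difference of -0.45 ± 0.11 did not pass (adjusted p = 0.174), nor did it with any array left out (adjusted p = 0.14 to 0.592). Its 95% interval was -0.70 to -0.21, and without wildtype replicate 1 it was -0.53.

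Ikzf1, the founding member of the family, read 10.51, 10.69 and 10.55 without the deletion and 10.53, 10.50 and 10.57 with it. Ikzf3, which works alongside Ikaros in lymphocytes, read 8.60, 8.81 and 8.75 against 8.44, 8.71 and 8.77, and Ikzf5 (probe set 10497996) 7.77, 8.06 and 7.94 against 7.92, 7.87 and 7.95. In these 3 genes the genotypes overlapped. Their differences were -0.05 (95% interval -0.26 to 0.16) for Ikzf1, -0.08 (-0.33 to 0.17) for Ikzf3 and -0.01 (-0.24 to 0.22) for Ikzf5, intervals that leave room for a change of up to about 0.3 and not for one of the size seen in Ikzf2. Without wildtype replicate 1 they were -0.09, -0.14 and -0.09, and each of the 3 turned to above 0 under some of the alternatives. The second probe set of Ikzf5 (10568529) differed by -0.16, and its wildtype values enclosed all 3 knockout values.

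The change in Ikzf2 was then set against that in each relative, array by array, as the log2 value of Ikzf2 minus that of the relative. The knockout minus wildtype difference of this quantity was -1.46 for Ikzf1, -1.43 for Ikzf3, -1.497 for Ikzf5 and -1.05 for Ikzf4, and in all 4 comparisons the 3 knockout arrays lay below the 3 wildtype arrays. For Ikzf4, with the smallest of the 4 differences, the array differences were 0.44, 1.00 and 1.08 without the deletion and -0.28, -0.39 and 0.04 with it. Each exact permutation test (two-sided) gave p = 0.1, also after Benjamini-Hochberg adjustment over the 4 comparisons. This is the smallest p that 3 arrays against 3 allow, so the design could not reach 0.05 here.

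**Figure D3:**
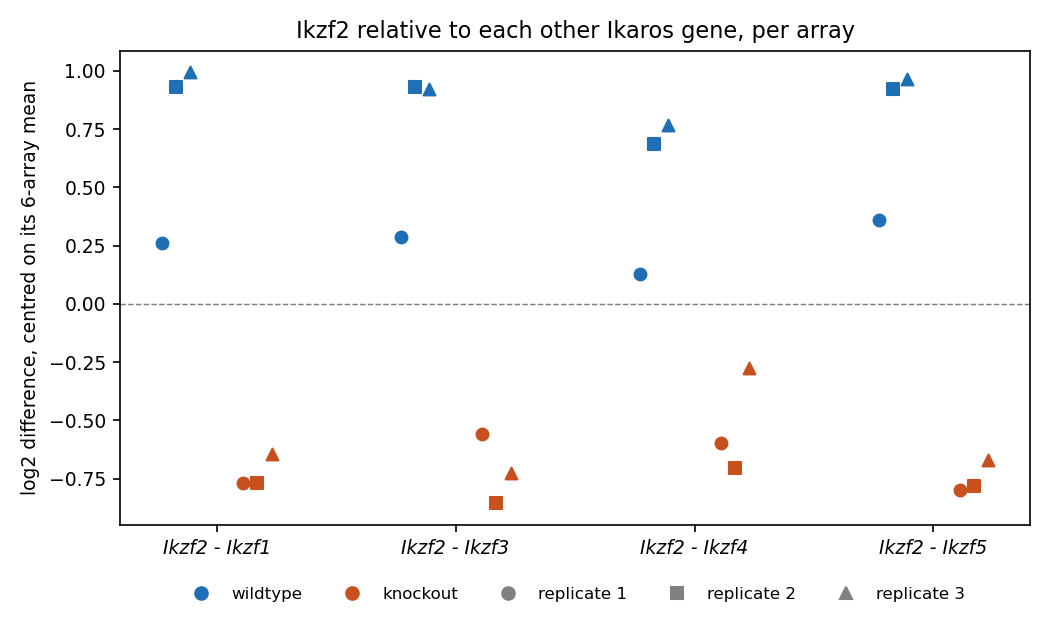
Log2 value of Ikzf2 minus that of each other Ikaros gene on each array, centred on the mean of the 6 arrays, in wildtype (blue) and knockout (orange) cells. In all 4 comparisons the knockout points lie below the wildtype points, and wildtype replicate 1 (circle) is the lowest of the wildtype points.

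Among the 3 surface genes, Lrrc32 (probe set 10555174) was the one whose fall passed the test. The wildtype arrays read 5.86, 6.93 and 7.05 and the knockout arrays 4.88, 4.64 and 4.74, with 0.98 between the nearest arrays of the 2 genotypes. The difference was -1.86 ± 0.26 (3.63-fold lower, 95% interval -2.43 to -1.29, adjusted p = 0.0105). It was -2.23 without wildtype replicate 1 (adjusted p = 7.48e-05). The call was lost without wildtype replicate 3 (adjusted p = 0.0657) or knockout replicate 2 (0.0541). All 3 knockout values lay under 4.94, the typical median of an array over all probe sets. No detection call was used here, so how far such values stand above background is unknown, and the fold has that limit.

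Nrp1 (probe set 10576639), much used as a surface mark of regulatory T cells of thymic origin, read 5.58, 6.74 and 6.36 in wildtype cells against 4.57, 5.03 and 5.29 in knockout cells. The genotypes were separated by 0.29. The difference of -1.26 ± 0.27 (95% interval -1.86 to -0.66) did not pass (adjusted p = 0.0961). Leaving out 1 array moved it between -1.58 and -1.003, and only without wildtype replicate 1 did it pass (adjusted p = 0.00877).

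Entpd1 (probe set 10463070), the ectonucleotidase, was the one surface gene whose genotypes overlapped, with wildtype values of 4.21, 4.81 and 5.06 and knockout values of 4.11, 4.25 and 3.91. Wildtype replicate 1 lay below knockout replicate 2. The difference was -0.60 ± 0.19 (95% interval -1.03 to -0.18, adjusted p = 0.405), and -0.84 without wildtype replicate 1, where it passed (adjusted p = 0.026). Its knockout values too were under the array median of 4.94.

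Ebi3 (probe set 10445977) encodes the subunit that pairs with other chains to form the cytokines IL-27 and IL-35. Wildtype arrays read 4.87, 5.46 and 5.64 and knockout arrays 4.32, 4.79 and 4.46, with 0.08 between the nearest arrays and all 3 knockout values under the array median of 4.94. The difference of -0.80 ± 0.19 (95% interval -1.23 to -0.37) did not pass (adjusted p = 0.166). It was -1.03 without wildtype replicate 1 and passed (adjusted p = 0.0168).

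Wildtype replicate 1 was not equally far from the other wildtype arrays in every gene. Relative to the mean of wildtype replicates 2 and 3 its value was -1.13 for Lrrc32, -1.01 for Foxp3, -0.97 for Nrp1, -0.81 for Ikzf2, -0.72 for Entpd1, -0.68 for Ebi3 and -0.21 for Ikzf4. For Ikzf5, Ikzf3 and Ikzf1 it was -0.23, -0.18 and -0.11, and over all genes tested the median of this quantity was 0.01. On the log2 scale from the knockout mean to the mean of wildtype replicates 2 and 3, wildtype replicate 1 stood at 63.4% of the way for Foxp3, 59.2% for Ikzf4, 54.2% for Ikzf2, 49.6% for Lrrc32, 38.7% for Nrp1, 33.6% for Ebi3 and 14.4% for Entpd1. The wildtype SD was above the knockout SD in 9 of the 10 genes, as in 65.0% of all genes. What set wildtype replicate 1 apart was not tested.

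The genes whose values over the 6 arrays, centred on each gene's mean, were nearest to those of Foxp3 were found by the root mean square difference, which had a median of 1.27 over all other genes. This is a description over 6 arrays with no test. Lrrc32 ranked second, at 0.30, behind Il2ra, which encodes the CD25 chain by which T cells bind IL-2 tightly, at 0.29. Ctse, an aspartic protease, Arhgap20, a GTPase-activating protein, Cd55, an inhibitor of complement, and Il1r2, a decoy receptor for IL-1, followed at 0.36, 0.41, 0.42 and 0.44. Ikzf2 was next, at 0.47 and rank 7. Nrp1 had rank 16, Ebi3 36, Entpd1 64 and Ikzf4 162, while Ikzf3, Ikzf1 and Ikzf5 had ranks of 3749 to 6418.

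These 6 neighbours differed in how wildtype replicate 1 read, a division made after their values were seen. Il2ra (7.16, 8.43 and 8.54 in wildtype replicates 1 to 3), Lrrc32 and Il1r2 (4.97, 5.94 and 6.09) lay at -1.33, -1.13 and -1.05 there relative to the mean of the other wildtype arrays, beside the -1.01 of Foxp3. Ctse (10.88, 10.89 and 10.87), Arhgap20 (7.20, 7.40 and 7.04) and Cd55 (6.23, 6.51 and 5.95) were level with that mean, within 0.03. Where Ctse, Arhgap20 and Cd55 lie relative to Ptprc, the CD45 gene whose allele went with genotype, was not examined. All 6 fell in the knockout, with differences of -2.37 to -1.57. They were picked for nearness to Foxp3, which itself fell, so these falls follow from the choice and add no support. For Ikzf2 the 3 nearest profiles were those of the chemokine receptor Cxcr3, at 0.13, the phosphatase Dusp4, at 0.15, and Il1r2, at 0.19. Each of these was lower on wildtype replicate 1, by the same measure at -1.05 to -0.57. Nearness to Ikzf2, itself lower on that array and in the knockout, favours such genes. Cxcr3 read 6.34, 7.05 and 6.78 in wildtype cells against 5.18, 5.39 and 5.36 in knockout cells.

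**Figure D4:**
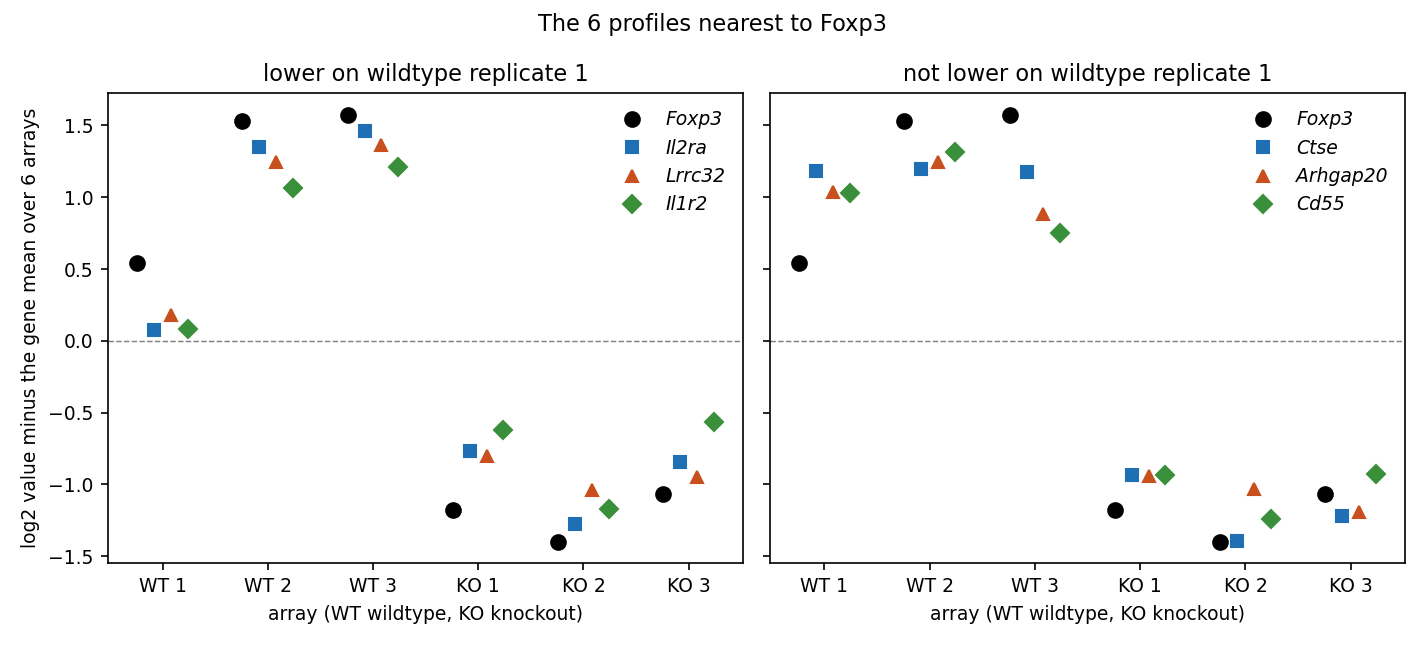
Log2 values minus each gene's mean over the 6 arrays for Foxp3 (black, in both panels) and its 6 nearest profiles. Foxp3, Il2ra, Lrrc32 and Il1r2 (left) are lower on wildtype replicate 1 than on replicates 2 and 3, whereas Ctse, Arhgap20 and Cd55 (right) are not.

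Beyond the 10 genes, 24 further regulatory T cell signature genes were measured. Of these 4 fell (Il2ra, Il1r2, Dusp4 and the ectonucleotidase Nt5e) and 1 rose (Izumo1r, folate receptor 4, named here after its values were seen), against 0.216% and 0.351% of all genes. At an unadjusted p under 0.05, 14 were lower and 3 higher, against 3.87% and 3.04% of all genes. The median difference was -0.49. In 12 of the 24 every knockout array lay below every wildtype array, beside the 6.57% over all genes. Wildtype replicate 1 was the lowest wildtype array in 21 of the 24. Without it 11 of them fell and 0 rose (limma; 2 higher at an unadjusted p under 0.05), and without wildtype replicate 3 or knockout replicate 1 none passed (limma, 0 in each direction; 12 and 14 lower at an unadjusted p under 0.05). Without any other single array 1 fell. With 1 array left out at a time, the calls of Il2ra and Il1r2 held only when it was wildtype replicate 1, that of Nt5e only without wildtype replicate 1 or 2, and that of Dusp4 only without wildtype replicate 1 or knockout replicate 3.

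Il2ra, with 6.31, 5.80 and 6.24 in knockout cells, differed by -1.93 ± 0.31 (adjusted p = 0.0245). Nt5e, with wildtype values of 5.43, 5.99 and 6.04 and knockout values of 4.72, 4.87 and 4.76, differed by -1.04 ± 0.15 (limma adjusted p = 0.0154). The knockout values of Nt5e, like those of Il1r2, were all under the array median of 4.94. Izumo1r took the opposite course, from 8.99, 9.71 and 9.35 to 10.11, 10.37 and 10.32, a rise of 0.92 ± 0.16 (adjusted p = 0.0434). With 1 array left out at a time this rise passed only without wildtype replicate 2. Izumo1r too was lowest in wildtype on replicate 1, at -0.54 relative to the mean of the other wildtype arrays. The receptor Gpr83 and the cytokine signalling inhibitor Cish, at -0.94 and -0.59 by the same measure, had knockout minus wildtype differences of 0.72 and 0.38 that did not pass (adjusted p = 0.5 and 0.654). The remaining 2 of the 24 with a knockout mean above the wildtype mean were Tnfrsf1b, a TNF receptor (0.10, and -0.46 for wildtype replicate 1), and the costimulatory receptor Icos (0.15, and -0.01), neither past the test. In Izumo1r, Gpr83, Cish and Tnfrsf1b, named after their values were seen, the array that was lowest for Foxp3 within wildtype was the lowest of all 6, and the knockout mean lay above the wildtype mean.

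**Figure D5:**
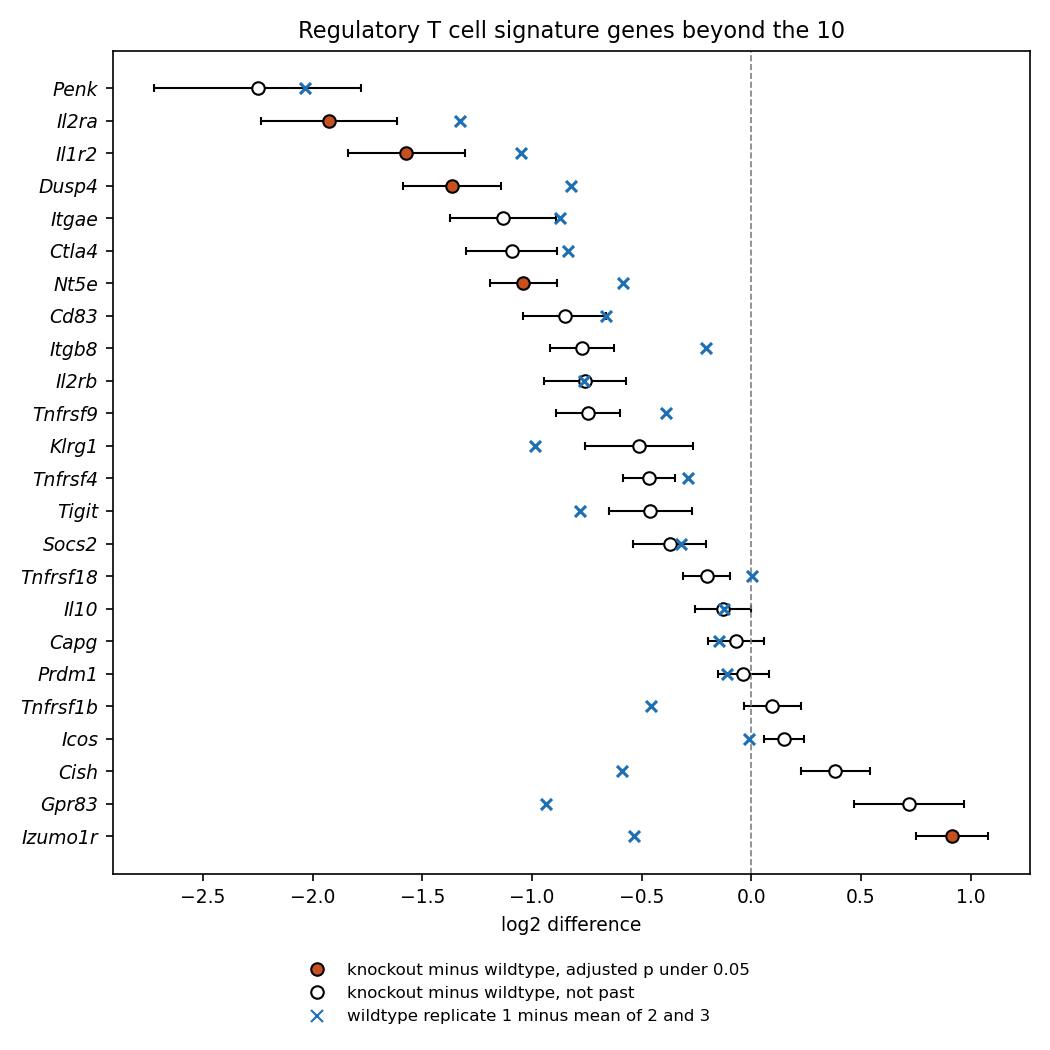
Knockout minus wildtype difference (log2, ± limma standard error) of 24 regulatory T cell signature genes, filled where the adjusted p was under 0.05, and, as crosses, wildtype replicate 1 minus the mean of wildtype replicates 2 and 3. The 2 quantities share the wildtype values. Most genes lie left of 0 by both, while Izumo1r, Gpr83, Cish, Tnfrsf1b and Icos lie right of 0 by the first and left by the second, Icos only just.

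Of the listed regulators and partners of Foxp3, Nr4a3 was the one that passed. Of 29 measured regulators and partners of Foxp3 (Runx1 and Cbfb, Stat5a and Stat5b, Foxo1, Gata3, Nfat, Rel and chromatin enzymes among them), 1 fell and 0 rose against 0.216% and 0.351% of all genes (limma; 7 at an unadjusted p under 0.05 in either direction, against 6.91% of all genes), and their median difference was -0.08. The gene that fell was Nr4a3, an orphan nuclear receptor induced by antigen receptor signals, from 7.29, 7.44 and 7.27 to 6.69, 6.70 and 6.80 (-0.60 ± 0.09, adjusted p = 0.0209). Unlike Foxp3, Nr4a3 was level across the wildtype arrays, and with 1 array left out at a time it passed only without wildtype replicate 1 or 2 (adjusted p otherwise up to 0.12). Of the 29 genes, 21 had a lower mean in the knockout and 8 a higher one. In 8 of the 29 every knockout array lay below every wildtype array, beside 6.57% of all genes. Irf4, named after its values were seen, was higher on every knockout array than on any wildtype array (0.74, limma adjusted p = 0.143). Of 17 genes of the NuRD, Sin3 and CtBP complexes, through which Ikaros proteins act on chromatin, 0 passed in either direction (limma; 0 at an unadjusted p under 0.05). The smallest p among them was that of the deacetylase Hdac1, with a difference of -0.15 (adjusted p = 0.901).

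Among the genes listed around the surface and secreted members, Nt5e and Il12rb1 passed, beside 0.216% of all genes called lower and 0.351% called higher. At an unadjusted p under 0.05 the counts that follow stand beside 6.91% of all genes. Of 19 genes of latent TGF-beta and its receptors, around Lrrc32, 0 passed (limma; 4 at an unadjusted p under 0.05). Itgb8, the integrin chain that helps to release active TGF-beta, read 4.85, 4.97 and 5.15 against 4.22, 4.50 and 3.93 in the knockout. The difference of -0.77 missed the threshold (limma adjusted p = 0.0546), and the knockout values were under the array median of 4.94. Of 15 genes of extracellular ATP and adenosine, around Entpd1, the 1 that fell was Nt5e, which acts after Entpd1 to make adenosine (limma; 4 at an unadjusted p under 0.05). Of these 15 genes 10 had a higher mean in the knockout and 5 a lower one, with a median difference of 0.07. Of 8 genes listed around Ebi3 as cytokine partners or receptor chains, 6 had a higher mean in the knockout and 2 a lower one (limma, 3 at an unadjusted p under 0.05). Il27ra and Il12rb2, named after their values were seen, differed by 0.27 and 0.52 (limma adjusted p = 0.592 and 0.118). The 1 that passed was Il12rb1, a chain of the receptors for IL-12 and IL-23, from 6.50, 6.62 and 6.69 to 7.16, 7.29 and 7.36 (0.67 ± 0.10, adjusted p = 0.0165). With 1 array left out at a time this call held only without wildtype replicate 2 or knockout replicate 1. Of 14 co-receptors and ligands of Nrp1, 0 passed (limma; 4 at an unadjusted p under 0.05). Its paralog Nrp2 read 4.87, 4.89 and 4.77 against 4.40, 4.06 and 4.29 in the knockout (-0.59, limma adjusted p = 0.0501), every value under the array median of 4.94.

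Among the markers of other cell types, Lyz2 was the one that passed, beside 0.351% of all genes called higher. The counts at an unadjusted p under 0.05 again stand beside 6.91% of all genes. Of 6 macrophage markers 1 rose, the lysozyme gene Lyz2 (5.68, 4.97 and 5.22 in wildtype, 7.03, 6.82 and 6.17 in knockout cells, adjusted p = 0.0256). With 1 array left out at a time Lyz2 passed in 2 of 6 fits. The list's mean, Lyz2 included, was 4.33 to 4.49 in wildtype and 4.50 to 4.86 in knockout arrays. Of the 6 markers 3 had a higher mean in the knockout and 3 a lower one, with a median difference of 0.01 (limma, 2 at an unadjusted p under 0.05). Itgam, named after its values were seen, was lower on every knockout array than on any wildtype array (-0.33, limma adjusted p = 0.528). Of 7 markers of double-positive and immature thymocytes 0 passed (limma; 2 at an unadjusted p under 0.05) and all 7 had a higher mean in the knockout. The list's mean was 6.62, 6.86 and 6.87 on the wildtype arrays against 6.70, 7.25 and 7.76 on the knockout arrays, which overlap. Like the mean of the 24 regulatory T cell signature genes, this mean was lowest in wildtype on replicate 1. Unlike the mean of those 24, it was highest on 2 of the knockout arrays. Of the 7 markers themselves, 4 were lowest in wildtype on replicate 1, beside 30.05% of all genes. Of 5 CD8 T cell markers 0 passed (limma; 3 at an unadjusted p under 0.05), with means of 7.36 to 7.62 in wildtype and 6.97 to 7.40 in knockout arrays. These means mix directions. Runx3, Eomes and Nkg7 differed by -0.55, -0.695 and -0.76, whereas Cd8a and Cd8b1, which are also among the 7 immature markers, differed by 0.37 and 0.13. These 5 were named after their values were seen. The lists for B cells, dendritic cells, thymic epithelium, invariant natural killer T cells and red cells, with 5, 5, 5, 5 and 1 measured markers, held 0 calls (limma; 2 genes, in the natural killer T cell list, at an unadjusted p under 0.05). Of the B cell, macrophage and dendritic cell markers, 4, 4 and 5 had a mean level below that of the median gene. Without a detection limit, a low array value does not show that a marker was absent. The part of these cells in the differences of Foxp3, Ikzf2 and Lrrc32 was not tested.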

How the data were processed

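Expression was measured on 6 arrays, 3 per genotype. Values were deposited on a log2 scale, which was read from their range (1.09 to 13.18). RMA and Partek are named, without versions, in the submitters' processing notes, and no build was given in the sources used here. RMA makes the arrays' distributions equal, which would hide a change shared by all genes. Arrays have no read depth, and their number limits the precision.

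Symbols came from the platform's annotation. Of 35556 probe sets, 21789 had 1 symbol, 1621 several and 12146 none listed. Among several probe sets of a gene the one with the highest 6-array mean was used, leaving 19938 genes. Of the 10 described, Ikzf5 had 2 probe sets and the others 1. Gene order and chromosomes came from a RefSeq table of GRCm38.p6.

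Genotypes were compared in R 4.3.3 by limma 3.58.1 (lmFit, eBayes; two-sided). P-values were adjusted over all 19938 genes by Benjamini-Hochberg, genes under 0.05 were called, and the fit was tested on simulated data. Exact permutation tests used scipy 1.17.1, and figures matplotlib 3.10.9. Named besides the 10 were Bach2, up to 4 called genes per list (in a pathway list without calls, the gene with the smallest p), and the 6 and 3 profiles nearest to Foxp3 and Ikzf2. The 10 genes and the lists were chosen with earlier results of these data known. Some genes of the lists are not reported here, and counts are over the measured ones. Alternatives were limma's trended, robust and absent prior, a filter on dim genes, a second quantile normalization, centring on medians, weights per array, averaged or all probe sets, the replicate number as a block and leaving out each array.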

Additional observations from a re-analysis of the deposited data

How the results depend on the processing

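The median of all genes moved by less than 0.1 under every alternative. Foxp3 stayed lower in all 16 alternatives and past the threshold in 14; its difference of -2.43 did not pass without moderation of the spread (adjusted p = 0.393) or with all 35556 probe sets (0.0743). With each array left out its difference was -2.77 to -2.25. The count of falling genes among the 10 was 0 in those same 2 settings (limma; 6 and 7 lower at an unadjusted p under 0.05), 5 with the replicate number as a block and 1 to 6 with each array left out. Deviations from the group means of same-numbered arrays correlated at 0.21, 0.11 and -0.07, the design text gives separate mice, and the arrays were not taken as paired. The replicate block added Nrp1 (limma adjusted p = 0.0075) and Ebi3 (0.0421), and wildtype replicates 2 and 3 did not correlate best with their own numbers. Nrp1 also passed with a prior that followed expression (0.0389).

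Ikzf2 and Lrrc32 stayed lower in all 16 alternatives and passed in 13 and 12. With each array left out, the difference was -0.089 to 0.0015 for Ikzf1 (above 0 without wildtype replicate 2), -0.15 to 0.017 for Ikzf3 (above 0 without knockout replicate 1) and -0.087 to 0.058 for Ikzf5 (above 0 without wildtype replicate 2 and, at 0.012, knockout replicate 2). With array weights that of Ikzf5 was 0.0093. None of these passed. The filter on dim genes left out Ebi3 and Entpd1. The change of Ikzf2 minus that of each relative was, with each array left out, -1.69 to -1.32 (Ikzf1), -1.64 to -1.32 (Ikzf3), -1.25 to -0.93 (Ikzf4) and -1.69 to -1.39 (Ikzf5).

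The same alternatives were added for the 24 signature genes and other named genes after seeing the data. Of the 24, the number that fell was 9 with the prior that followed expression, 8 with array weights, 7 with median centring and with the replicate block, and 0 without moderation or with all probe sets (limma; 12 lower in both at an unadjusted p under 0.05), and 0 to 11 with each array left out. The number that rose was 0 in the same 2 settings (limma; 2 and 1 higher at an unadjusted p under 0.05) and 0 to 1 with each array left out. Over all genes, 70 rose and 43 fell. These counts were 100 and 78 with the prior that followed expression, 1 and 0 without moderation, 29 and 8 with all probe sets, 48 and 66 without wildtype replicate 1, 29 and 18 without wildtype replicate 3, and 37 to 43 and 21 to 33 without 1 of the knockout arrays. The causes of these changes were not tested.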
